A study of Mus musculus with 4 samples.

Results

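Multi-copy duplicated segments are stretches of a chromosome in which blocks of sequence recur with few differences. H4K16ac, the acetyl mark on lysine 16 of histone H4, was read there from ChIP-seq islands in neural progenitor cells (NPC) and embryonic stem cells (ESC) of the mouse. Islands are broad stretches called as enriched in ChIP reads. Members were all islands of both lists that overlapped 5 segments on mouse genome build mm9. The segments ran from 3000000 to 8200000 on chromosome 14, 18900000 to 22200000 on chromosome 8, 14500000 to 15600000 on chromosome 5, 84800000 to 85500000 on chromosome 1 and 66900000 to 67100000 on chromosome 7. They held 563 of 88848 islands, namely 224 of 48278 NPC islands and 339 of 40570 ESC islands. The segments were chosen by the reads and densities of islands in these same lists, so the values below are a description and were given no test.

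The NPC were 46c cells sorted for GFP after 5 days of differentiation with NB27 and Neuro2 supplements, and the ESC were the same line, undifferentiated. The 46c line is an ES cell line whose Sox1 locus carries GFP; Sox1 is active in neural progenitors, so the sort keeps cells that express the reporter. Chromatin of both was cut with micrococcal nuclease (MNase), 1 Millipore antibody to H4K16ac served both cell types, and each cell type had 1 H4K16ac library and 1 input library. The lists hold reads inside islands alone, 24386370 in NPC and 17935144 in ESC, so the depth of each library is unknown. With 1 library per cell type no difference had a replicate check. The intervals given for reads and their ratios cover counting error only, and those for overlap shares treat islands as independent draws. The lists carry no gene names, so the cell types could not be checked against marker genes.

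H4K16ac is written mainly by the acetyltransferase MOF (KAT8). It is known for keeping nucleosome arrays from folding tightly, and it is found at active genes and enhancers. Several of these stretches are known in the mouse for gene families that grew by duplication. Chromosome 8 carries clusters of defensins, which are antimicrobial peptides, and chromosome 5 carries Speer genes, which are expressed in the testis. Proximal chromosome 14 carries the takusan family, which is expressed in the brain, and the imprinted region of chromosome 7 that corresponds to the human Prader-Willi region carries small nucleolar RNA genes in tandem copies. Which of these genes lie under which island was not analysed here, because the gene tables used are on another build.

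Short reads from such copies can fit more than 1 position, and whether reads with several positions were kept, dropped or placed at random is not given in the sources used here. Input reads were not used either, so the number of copies in these cells was not measured and its part in every value below was not tested. To show how alike copies can be, the 2 most similar promoters of the Speer family on chromosome 5 are given, from 250 bases before to 50 bases after the gene's start. They come from RefSeq on build GRCm38.p6 and are not placed on the mm9 islands. Among 9 Speer genes with a promoter in that table, the Speer4c and Speer4e promoters differed at 4 of 300 bases, which are in capitals, and were 98.7% identical. No other pair differed at fewer than 202 positions when compared base by base without gaps. The first lies at chr5:15714222-15714521 and the second at chr5:14938426-14938725, both on the minus strand, and both are printed 5′ to 3′.
Speer4c: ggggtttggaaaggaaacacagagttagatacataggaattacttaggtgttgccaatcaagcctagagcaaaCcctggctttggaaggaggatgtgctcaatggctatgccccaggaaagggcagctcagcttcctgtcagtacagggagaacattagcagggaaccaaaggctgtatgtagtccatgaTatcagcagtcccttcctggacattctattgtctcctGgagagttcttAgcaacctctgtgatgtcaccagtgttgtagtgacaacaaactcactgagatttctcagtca
Speer4e: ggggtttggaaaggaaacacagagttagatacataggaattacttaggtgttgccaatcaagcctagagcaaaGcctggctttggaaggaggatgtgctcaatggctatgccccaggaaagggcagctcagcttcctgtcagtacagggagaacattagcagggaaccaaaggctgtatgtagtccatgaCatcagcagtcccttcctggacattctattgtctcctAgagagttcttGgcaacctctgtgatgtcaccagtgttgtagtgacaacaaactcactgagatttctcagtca

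In each of the 5 segments H4K16ac islands held a smaller part of the island reads in NPC than in ESC. Together the segments took up 6465 reads per 1000000 island reads (RPM) in NPC (exact Clopper-Pearson 95% interval 6433 to 6497) and 16636 RPM in ESC (16576 to 16695). That was a log2 NPC over ESC of -1.36 (-1.37 to -1.35), or 0.646% of NPC and 1.66% of ESC island reads. Without scaling, the segments held 157657 reads in NPC and 298360 in ESC. Islands covered 1455 kb of the 10.5 Mb in NPC and 2758 kb in ESC, which is 13.9% and 26.3% of the segments. Pooled, total reads over total island length were 108.3 reads per kb in NPC and 108.0 in ESC, but single segments differed. Values were near equal on chromosome 14 alone, at 83.4 in NPC and 83.3 in ESC. NPC was lower on chromosome 8 (200.4 in NPC and 215.8 in ESC), chromosome 5 (103.2 and 132.0) and chromosome 1 (66.4 and 158.5). The pooled log2 compares sums over unequal called lengths and is not a fold change of the same bases. Over the whole lists the order was the other way, with 307 Mb covered in NPC and 192 Mb in ESC.

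The segments fell into 3 kinds. On chromosome 14, NPC islands were spread along the whole segment but covered less of it than ESC islands. On chromosome 8, the same run of very dense islands was called in both cell types. On chromosomes 5, 1 and 7, long ESC islands had little or no NPC counterpart. Because chromosome 14 contributed 202 of the 224 NPC islands and 284 of the 339 ESC islands, pooled counts mostly describe that segment.

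**Figure D1:**
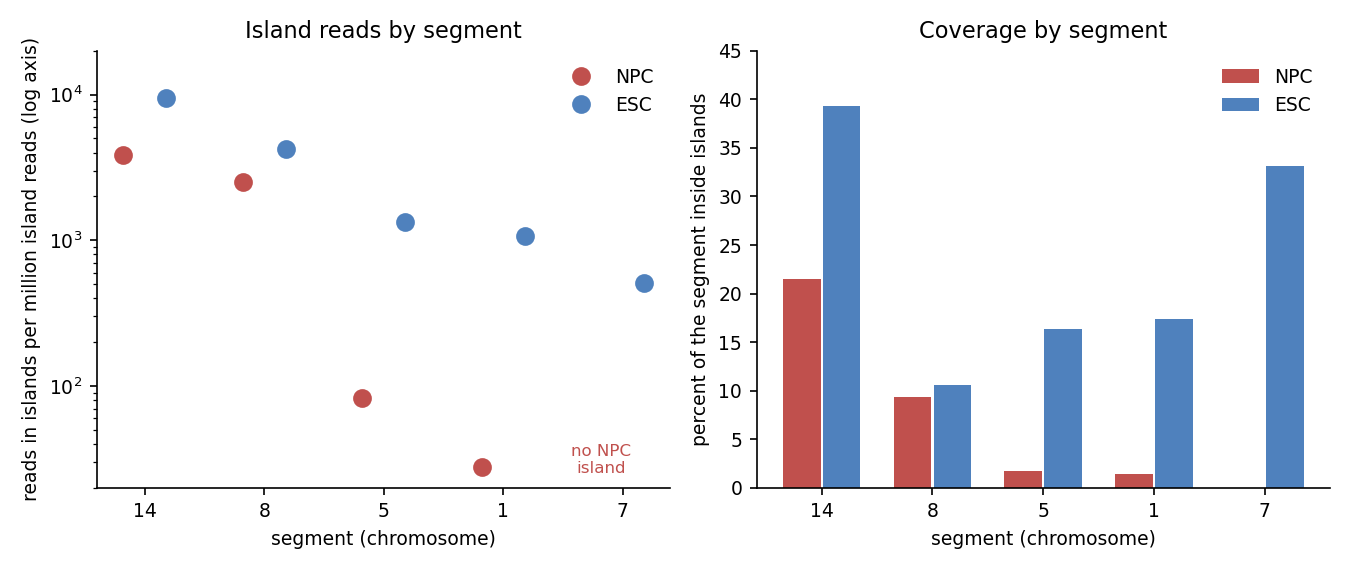
H4K16ac in the 5 segments, named by chromosome on the x axis, with NPC left of ESC. The left panel shows reads in member islands per 1000000 island reads on a log axis, and the right panel the percent of each segment inside islands. ESC lies above NPC in every segment; the gap is smallest on chromosome 8, and chromosome 7 had no NPC island.

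The segments are described as holding strong islands, which by density held in ESC on chromosomes 8, 5, 1 and 7, and in NPC mainly on chromosome 8. Density is the number of reads per kb of island, not scaled to depth unless stated. The median density on chromosome 14 was 81.3 reads per kb in NPC and 82.1 in ESC, beside 76.6 and 93.3 over the whole lists. Of the chromosome 14 islands, 63.4% in NPC and 21.1% in ESC lay above the median of their list. A density of 120 reads per kb or more was reached by 1.56% of the NPC list and 28.4% of the ESC list, and on chromosome 14 by 4 of 202 NPC and 11 of 284 ESC islands. In ESC, chromosome 14 thus stood out by the extent of its islands and not by their density, with 3.87% this dense. In NPC its median density was slightly above that of the list, and 1.98% of its islands were this dense. In the other segments such dense islands numbered 6 of 14 in NPC and 9 of 23 in ESC on chromosome 8, 1 of 6 and 12 of 18 on chromosome 5, and 0 of 2 and 8 of 11 on chromosome 1. On chromosome 7 they were 2 of 3 ESC islands.

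Proximal chromosome 14 was the segment richest in islands. Its 202 NPC islands held 93193 reads (3822 RPM, 3797 to 3846) and its 284 ESC islands 170182 reads (9489 RPM, 9444 to 9534), a log2 of -1.31 (-1.32 to -1.30). NPC islands covered 21.5% of the segment and ESC islands 39.3%. Elsewhere on chromosome 14 they covered 9.49% and 5.95%, so the segment was richer than the rest of its chromosome in both cell types, and the order of the cell types was turned round. Total reads over total island length were nearly equal, at 83.4 in NPC and 83.3 in ESC. On this unscaled density scale the difference in reads thus followed the called length, whereas per 1000000 island reads the median density was 3.33 in NPC and 4.58 in ESC.

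Along the segment the order held almost everywhere. Split into 26 windows of 200 kb, the covered share ran from 5.8% to 36.9% in NPC (median 20.8%) and from 10.4% to 61.6% in ESC (median 37.3%). ESC covered more than NPC in 24 of the 26 windows. Among 10573 autosomal windows with an island, 43.5% had more ESC than NPC coverage. Windows rich in one list tended to be rich in the other, with a Spearman rho of 0.651 and a Pearson r of 0.665 over the 26 windows, which are neighbours from the same pair of libraries. No stretch longer than 107.6 kb was free of islands in both lists.

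**Figure D2:**
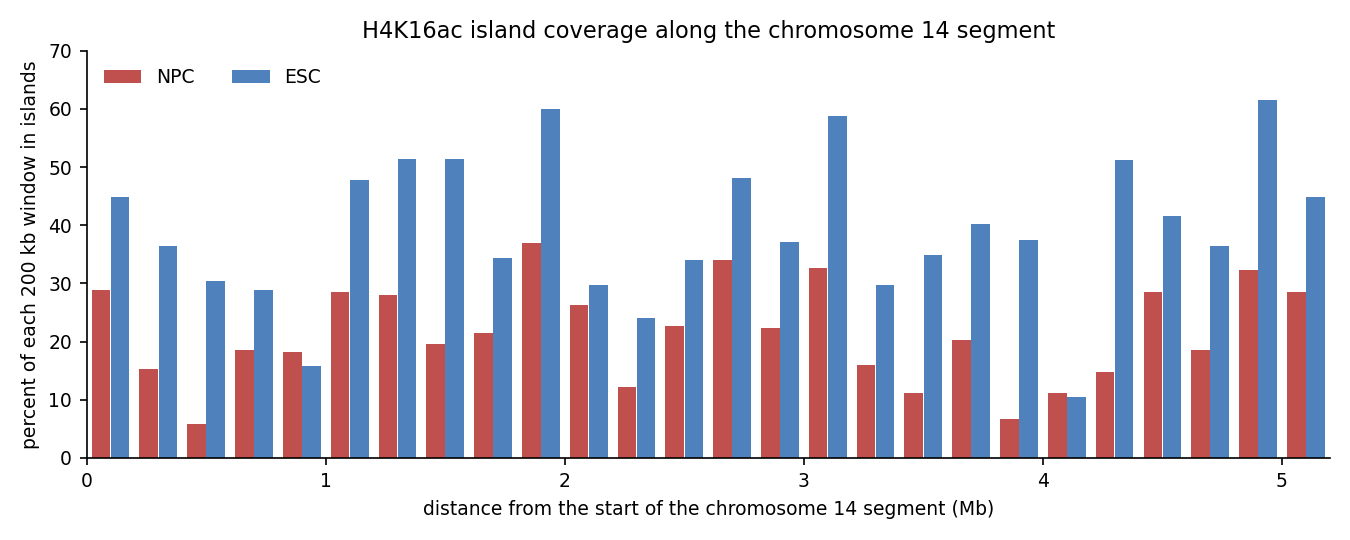
Percent of each 200 kb window inside H4K16ac islands along the chromosome 14 segment, against distance from the segment's start in Mb, with NPC left of ESC in each window. ESC covers more than NPC in 24 of 26 windows and reaches 61.6%, against a highest NPC value of 36.9%.

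Most NPC islands of chromosome 14 lay over ESC islands, and fewer ESC islands had an NPC counterpart. An ESC island overlapped 153 of 202 NPC islands (75.7%, exact interval 69.2% to 81.5%), beside 34.7% of the whole NPC list. An NPC island overlapped 135 of 284 ESC islands (47.5%, 41.6% to 53.5%), beside 39.8% of the ESC list. These intervals treat islands as independent draws, and the denser the islands of one list, the more often a shared base occurs by position alone. The 793 kb common to both lists made up 71.0% of NPC and 38.8% of ESC island bases in the segment. Over the whole lists the common bases were 32.3% of NPC and 51.6% of ESC island bases.

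Islands of both lists that share a base were merged into regions. On chromosome 14 there were 326 regions, of which 128 were called in both, 49 in NPC only and 149 in ESC only. Of all merged regions, 20.6% were called in both, 44.8% in NPC only and 34.7% in ESC only. The NPC-only regions held 21779 reads and the ESC-only regions 68668 reads. A region called in 1 list may still carry the mark in the other cell type below the calling threshold, since no reads outside islands are listed.

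In the 128 shared regions of chromosome 14 the NPC part was usually the shorter. It was narrower than the ESC part in 90 regions, equal in 14 and wider in 24, which is 18.8% beside 45.1% of all shared regions. Median called widths were 5.6 kb in NPC and 7.6 kb in ESC, against 5.8 and 5.4 kb in all shared regions. By RPM the median log2 was -0.78 with an SD across regions of 0.76, beside -0.49 and 1.07 in all 14478 shared regions. These values set reads over the called part of each list side by side, and NPC reads in the rest of a wider ESC island are not listed.

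By unscaled density the shared regions of chromosome 14 centred near 0, as shared regions did across the genome. The median log2 was -0.04 (SD 0.25), beside -0.07 (SD 0.40) in all shared regions, and 51 of 128 lay above 0, beside 39.3%. Scaling to island reads lowers each of these values by 0.44. Called borders coincided exactly at both ends in 13 of the 100 regions made of 1 island from each list, beside 8.09% of such regions overall. In 21 other regions 1 ESC island spanned several NPC islands, and in 5 regions 1 NPC island spanned several ESC islands. Of all 14478 shared regions, 11740 were made of 1 island from each list, beside 100 of 128 here. How the rest of all shared regions split between the 2 directions was not counted.

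**Figure D3:**
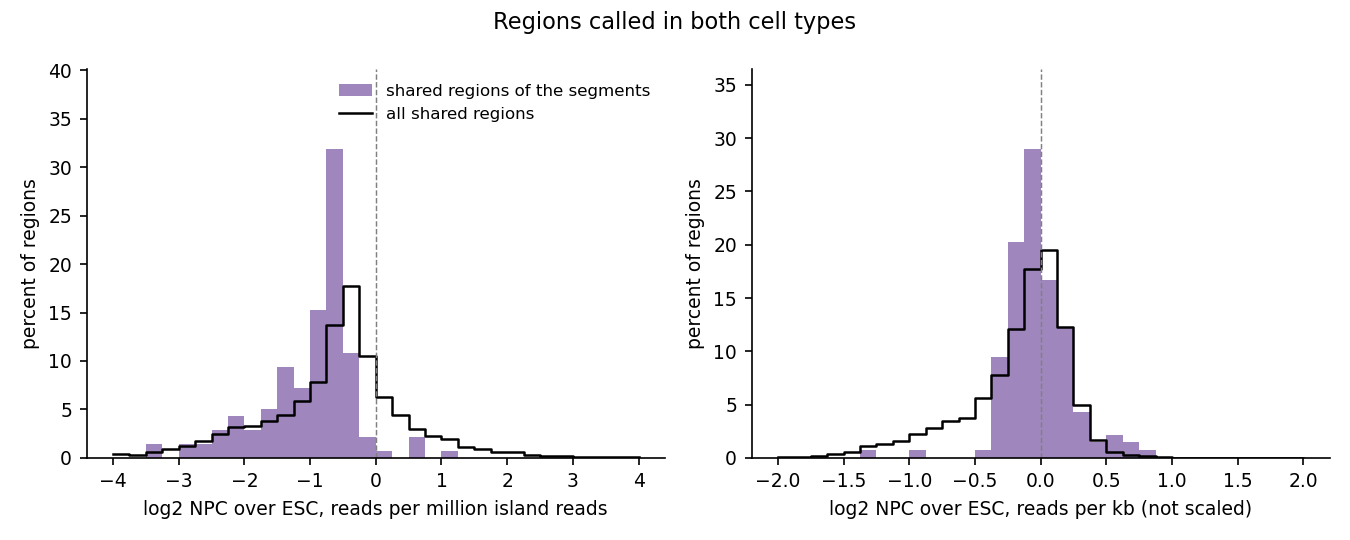
Log2 NPC over ESC in regions called in both cell types, as percent of regions per bin, for the 138 regions of the 5 segments (filled) and all 14478 shared regions (line). The left panel uses reads per 1000000 island reads, where the segments' median is -0.77 against -0.49, and the right panel unscaled reads per kb, where both medians lie near 0.

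Single chromosome 14 islands show the range. The widest island of the segment was nearly the same in both lists, at 5710401 to 5739800 with 2531 reads (86.1 reads per kb) in NPC and at 5710601 to 5739800 with 2898 reads (99.2 reads per kb) in ESC. The ESC island with most reads, 3268 over 25.6 kb at 4169001 to 4194600, had 96.9% of its bases in NPC islands, where the region up to 4194800 held 2974 reads at 119 reads per kb. Both are broad islands called over nearly the same bases in either cell type.

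Other chromosome 14 regions differed in extent or in density. At 5356001 to 5363800 a 7.8 kb ESC island with 605 reads met a 0.6 kb NPC island with 84 reads. Reads of NPC in the rest of that stretch are not listed, so no ratio of reads is given. The short NPC piece was the denser, at 140 reads per kb in NPC and 77.6 in ESC, so by density the region had the highest log2 of the segment, 0.85. The lowest log2 by density, -1.27, was at 7387801 to 7391000, where islands of equal width held 213 reads in NPC and 514 in ESC. Of the 14 shared regions of equal called width on chromosome 14, it was the one with the lowest log2. By reads, the largest region called in NPC only was 4692201 to 4709000, with 1559 reads at 92.8 reads per kb. The largest by reads called in ESC only was 6023201 to 6044000, with 2296 reads at 110 reads per kb.

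The chromosome 8 segment differed least between the cell types. Its 14 NPC islands held 61765 reads (2533 RPM, 2513 to 2553) and its 23 ESC islands 75928 reads (4233 RPM, 4203 to 4264), a log2 of -0.74 (-0.76 to -0.73). Coverage was 9.34% in NPC and 10.5% in ESC. The 3.3 Mb segment includes a stretch of 2030 kb without an island of either list, which lowers both shares. Of the bases in islands, 93.1% in NPC and 81.6% in ESC were common to both lists. The rest of chromosome 8 was covered to 14.2% in NPC and 8.79% in ESC.

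Nearly all of these reads came from 1 run of wide, very dense islands. In NPC 6 islands, and in ESC 5, were 10 kb or wider and reached 120 reads per kb. They spanned 19679601 to 20038800 in NPC and 19679601 to 20038400 in ESC. The 6 NPC islands held 59097 reads, 95.7% of the segment's NPC reads, and the 5 ESC islands 69539 reads, 91.6% of its ESC reads. Islands covered 75.3% of that span in NPC and 81.4% in ESC. Densities ran from 183 to 248 reads per kb in NPC and from 198 to 268 in ESC. These NPC islands ranked between 15 and 47 by density in the whole NPC list, and the ESC ones between 47 and 665 in the ESC list. The minimum width for this run was set after its values were seen.

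**Figure D4:**
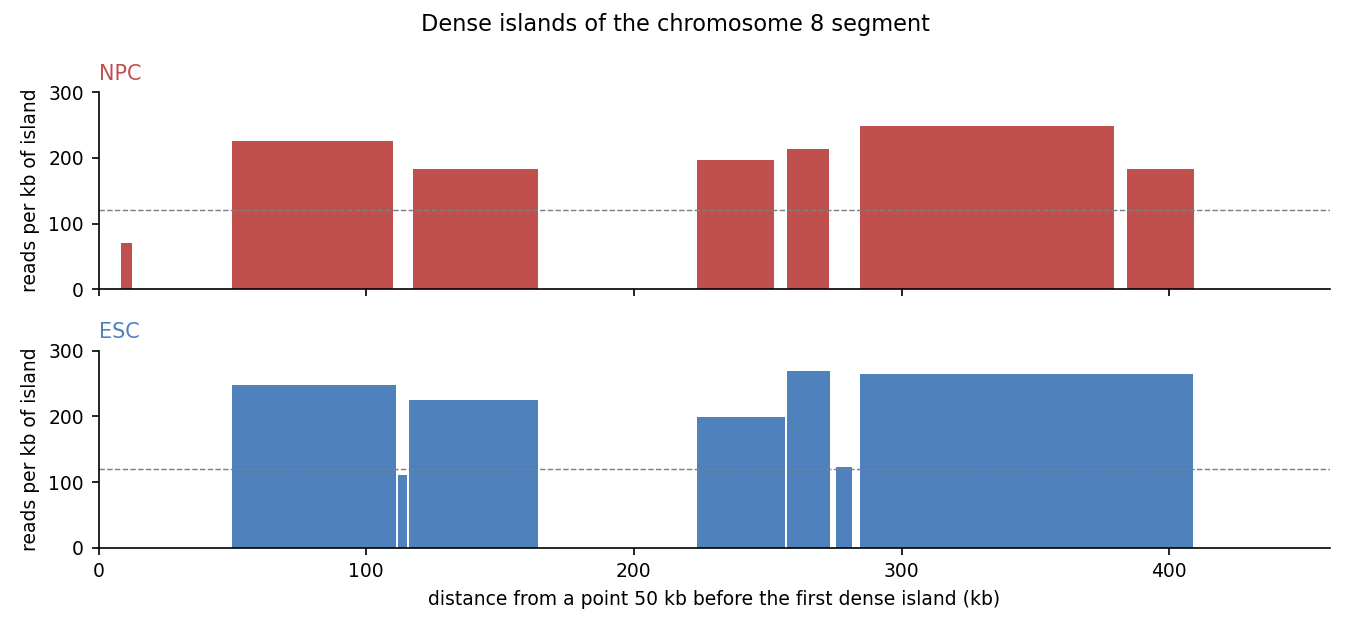
Islands of the dense run on chromosome 8, NPC above ESC, drawn to scale in kb from a point 50 kb before the first dense island; bar height is reads per kb of island and the dashed line marks 120. The dense islands of 10 kb or more lie at the same places in both cell types, with the last wide ESC island called as 2 islands in NPC. A shorter ESC island above the line, 19905001 to 19911200 at 123 reads per kb, has no NPC counterpart.

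Merged, the run gave 5 shared regions whose values lay close together. Their log2 by RPM ran from -0.79 to -0.61 and by unscaled density from -0.33 to -0.01. The longest, 19914001 to 20038800, held 28085 reads at 234 reads per kb in NPC and 32807 reads at 264 reads per kb in ESC, a log2 by RPM of -0.67. In NPC it was called as 2 islands, the first of 95 kb with 23556 reads, which ranked 3 by reads, 7 by width and 15 by density among NPC islands. The ESC island there, 124.4 kb, ranked 1 by width and 3 by reads. At 19886801 to 19902800, the densest ESC island of the segment, there were 3376 reads at 214 reads per kb in NPC and 4295 reads at 268 reads per kb in ESC. At 19853001 to 19886000 the densities were nearly equal, 197 in NPC and 198 in ESC.

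Apart from those 5 regions the chromosome 8 segment was sparse. Of its other 23 regions, 2 of them short ESC islands between the dense ones, 6 were called in NPC only, 15 in ESC only and 2 in both, beside 44.8%, 34.7% and 20.6% of all merged regions. Their densities ran from 56.3 to 96.0 reads per kb in NPC and from 57.6 to 164 in ESC. By reads, the largest of those called in 1 list were a 4.4 kb NPC island at 19637801 to 19642200 with 311 reads and a 10.8 kb ESC island at 22127201 to 22138000 with 870 reads. A shared region at 19156801 to 19169600 was the one region of the segment with a log2 by RPM above 0, with 871 reads over 12.4 kb in NPC and 584 reads over 8.2 kb in ESC (0.13). From 20038801 to 22068800, a stretch of 2030 kb right after the dense run, neither list had an island. Whether reads could be placed in that stretch was not tested.

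The chromosome 5 segment was covered to 1.78% in NPC and 16.4% in ESC. Its 6 NPC islands held 2022 reads (82.9 RPM, 79.3 to 86.6) and its 18 ESC islands 23814 reads (1328 RPM, 1311 to 1345). These sums were taken over 19.6 kb of NPC and 180.4 kb of ESC islands, at 103 and 132 reads per kb. Elsewhere on chromosome 5 the coverage was 15.6% in NPC and 9.42% in ESC. Of 22 merged regions, 2 were shared, 4 NPC only and 16 ESC only, beside 20.6%, 44.8% and 34.7% of all merged regions.

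Most ESC reads of the chromosome 5 segment lay between 14907801 and 15222200. There 11 ESC islands of at least 5 kb, a minimum set after the values were seen, held 22267 reads over 165.8 kb at 94.7 to 167 reads per kb, 93.5% of the segment's ESC reads. The one with most reads, 15112601 to 15141200, held 4768 reads in 28.6 kb at 167 reads per kb, ranked 52 by reads among ESC islands, and had no NPC island over it. NPC islands were absent from 14939201 to 15388400, a stretch of 449.2 kb that holds that island.

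In that run 1 ESC island had an NPC counterpart. At 14931201 to 14939200 there were 951 reads at 122 reads per kb in NPC and 1077 reads at 138 reads per kb in ESC, both over 7.8 kb, a log2 by RPM of -0.62 (-0.75 to -0.50). The other shared region, at 14870201 to 14874400 just before the run, had 205 reads over 2.2 kb in NPC and 314 reads over 4.2 kb in ESC. Its log2 by unscaled density was 0.32. Between these, NPC had an island of its own at 14880801 to 14885600 with 463 reads. The densest ESC island of the segment, 177 reads per kb, was short and lay apart, at 15577801 to 15579200.

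The chromosome 1 segment held 677 reads in 2 NPC islands (27.8 RPM, 25.7 to 29.9) and 19306 reads in 11 ESC islands (1076 RPM, 1061 to 1092). Islands covered 1.46% of it in NPC and 17.4% in ESC, and 3 kb was common to both lists. No log2 is given for the segment, since the stretches without an NPC call have no listed NPC reads. ESC-only regions held 18865 of its 19306 ESC reads. The log2 values given for chromosome 14 and for the pooled segments share this limit to a smaller degree. There, ESC-only regions held 68668 of 170182 and 124079 of 298360 ESC reads. Of 12 merged regions, 1 was shared, 1 NPC only and 10 ESC only, beside 20.6%, 44.8% and 34.7% of all merged regions. In the rest of chromosome 1, islands covered 9.43% in NPC and 5.33% in ESC.

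A single ESC island carried 65.7% of the ESC reads there. It spanned 69.2 kb at 85227601 to 85296800 with 12681 reads at 183 reads per kb, ranking 6 by reads and 14 by width among ESC islands, and no NPC island overlapped it. Just before it, at 85217201 to 85220600, was the only shared region, with 202 reads at 67.3 reads per kb in NPC and 441 reads at 130 reads per kb in ESC. Its log2 was -1.57 (-1.82 to -1.33) by RPM and -0.95 by unscaled density, so here NPC was lower by both measures. At the other end, 7 ESC islands between 84834001 and 84932400 held 5926 reads over 47.2 kb at 77.0 to 187 reads per kb. The densest of them, 84842201 to 84849400, had 1346 reads. The NPC island with most reads, 84903001 to 84910200 with 475 reads at 66.0 reads per kb, fell in a gap between these ESC islands.

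The chromosome 7 segment had no NPC island and 3 ESC islands, which held 9130 reads (509 RPM, 499 to 520) and covered 33.1% of the 200 kb. The largest, 67002201 to 67050400, held 6939 reads in 48.2 kb at 144 reads per kb and ranked 20 by reads among ESC islands. The others were 66927001 to 66941600 with 1746 reads at 119.6 reads per kb and 66948601 to 66952000 with 445 reads at 131 reads per kb. No ratio was formed, because an uncalled stretch has no listed reads. In the rest of chromosome 7, islands covered 15.1% in NPC and 8.18% in ESC. This segment lies in the imprinted region, where parental copies differ in chromatin, and the lists do not separate parental copies.

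Positions set the limits of the segments, and islands continued past some ends. Past the end of the chromosome 14 segment the first islands were 8227001 to 8240000 in NPC at 89.5 reads per kb and 8200601 to 8202200 in ESC at 91.9 reads per kb. The last islands inside had 53.7 reads per kb in NPC and 78.9 in ESC. Coverage in the 500 kb past that end was 16.6% in NPC and 33.0% in ESC, so the higher ESC coverage ran on beyond the limit. Over 1 Mb it was 29.2% and 28.6%. Within 1 Mb of the chromosome 5 segment, coverage was 1% in NPC and 2.92% in ESC before it, and 0.1% and 0.9% after it. Beside chromosome 7 it was 2.18% in NPC and 5.6% in ESC before the segment, and 0% and 0.76% after it. NPC coverage was the higher before the chromosome 8 segment (16.9% in NPC and 13.7% in ESC), after it (8.06% and 0.9%) and before the chromosome 1 segment (4.58% and 1.78%). At the left end of the chromosome 8 segment, 1 ESC island straddled the limit, and 22 of 23 ESC islands lay wholly inside. Past its right end the next NPC island was 659.6 kb away and the next ESC island 899 kb away. Around chromosome 5, the nearest outside islands lay 190.4 kb before and 409.8 kb after the segment in NPC, and 98 kb before and 74.8 kb after in ESC. Beyond the chromosome 1 and 7 segments to the right, no NPC island was called for 2092 and 2422 kb. In ESC the next islands there were 2167 and 47.8 kb away.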

How the data were processed

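H4K16ac ChIP-seq libraries of NPC and ESC, 1 each, were compared through their island lists; reads of the 2 input libraries were not used here, and how they entered the authors' island calls is not given in the sources used here. Per the submitters' processing notes, the build was mm9 and the tools were SICER 1.1, Bowtie 0.12.7, CASAVA 1.8.2, bedtools 2.10.1 and SAMtools 0.1.7. The authors deposited lists whose names state W200, G600 and FDR0.01, read as 200 bp windows, 600 bp gaps and a false discovery threshold of 0.01. Column 4, a whole number per island, was taken as its H4K16ac read count, deposited by the authors without scaling. Removal of duplicate reads and the handling of reads with several positions are not given in the sources used here.

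Taking the end as an inclusive base put 100% of islands on the 200 bp grid; positions were then shifted to count from 1. Members were islands with at least 1 base in a segment. Coverage was clipped to the segment. Reads were divided by each list's total. Read shares have exact Clopper-Pearson 95% intervals, and ratios the matching conditional binomial interval, for counting error only. Overlap shares have a Clopper-Pearson interval over islands, which are not replicates of a cell type. No test was run. Named regions were, per segment, the islands with most reads, width and density in each list, the shared regions with highest and lowest log2 by density, and the largest region of 1 list; others were named after their values were seen. Members, segments and lists were chosen with earlier results of these data known. Overlap, merging and ratio code was tested on simulated islands. Work used Python 3.11.15, numpy 2.4.6, pandas 2.3.3, scipy 1.17.1 and matplotlib 3.10.9.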

Additional observations from a re-analysis of the deposited data

How the results depend on the processing

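No paired analysis was possible because each cell type had 1 library. The lower NPC reads held under all settings run in the 4 segments with an NPC island, with a log2 from -1.47 to -0.87 on chromosome 14 and from -0.76 to -0.30 on chromosome 8. NPC coverage also stayed below ESC coverage in each of these segments. These settings change the scaling or the islands kept, and none can add NPC reads from stretches without an NPC island. The segments were also chosen by reads of these lists, so the constant direction shows only that it did not hang on those choices. The pooled log2 of reads was -0.92 unscaled, -1.38 scaled to reads outside the segments, -0.95 scaled to shared-region reads, -1.43 without the island with most reads, -1.46 with a minimum of the median reads and -1.43 without chromosome 14. The pooled coverage ratio, 0.528, was 0.479 with that minimum and 0.472 without chromosome 14. Median density, 3.36 in NPC and 4.69 in ESC per 1000000 island reads, was 82.0 and 84.2 reads per kb unscaled, 4.44 and 6.02 as total reads over total length, and 3.70 and 6.99 without chromosome 14. Overlap was 73.2% of NPC and 43.1% of ESC islands, beside 34.7% and 39.8% of the whole lists. Without chromosome 14 it was 50% of NPC and 20% of ESC islands. The ESC value was 33.0% if an overlap had to reach 50% of the island and 35.9% with the read minimum. The median log2 of shared regions, -0.77, was -0.36 scaled to shared-region reads, -0.33 unscaled and -0.99 with gaps of 2000 bp merged. Pooled over the flanks of all segments, the coverage ratio NPC over ESC was 1.12 within 1 Mb and 0.795 within 500 kb, a change of direction. The cause was not tested. Among single 500 kb flanks with an island, the ratio ran from 0 right of chromosome 7 to 3.41 left of chromosome 1. Leaving out chromosome 14 was chosen after seeing the data. Unknown library depth limits the reading of regions called in 1 list.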
